A study of Mus musculus with 24 samples.

Results

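The small leucine-rich proteoglycans are a family of secreted matrix proteins, and 10 of its genes were followed here through the mouse distal femur: Dcn, Bgn, Aspn, Fmod, Lum, Prelp, Omd, Epyc, Ogn and Chad. They were picked by symbol, as known members of the family, from 18052 genes in a table of sorted skeletal stem cells and from 20968 genes in a table of bulk tissue and factor-treated cells. All 10 were found in both tables. In the second table the 10 genes had 21 probe sets, and each gene was read from its probe set with the highest mean over that table's 14 arrays.

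All mice were C57BL/6J, and 24 Affymetrix arrays were deposited. Sorted stem cells came from newborns at postnatal day 3 (4 arrays), from microfractured joints of adults aged 9 to 25 weeks (3 arrays) and from uninjured adults of the same age range (3 arrays). Microfracture is a surgical procedure that perforates the bone under joint cartilage and lets marrow cells enter a defect. The cells were sorted as CD45−TER119−TIE2−ITGAV+THY1−6C3−CD105−, a surface pattern used to enrich skeletal stem cells, and each sample held 500 to 1000 cells whose RNA was amplified in 2 rounds. Bulk bone came from newborns (3 arrays), microfractured adults (3 arrays) and uninjured adults (5 arrays). Single arrays held sorted cells of microfractured adult joints given BMP2, VEGFR1 or PBS. VEGFR1 here is the treatment as labelled, BMP2 is a bone morphogenetic protein, and PBS is the saline control. The sources used here do not state the time after surgery, the sex or the number of animals per sample.

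Each of these proteins carries a curved stretch of leucine-rich repeats that lies against collagen fibrils and sets their width and spacing. Many members also hold a sulfated sugar chain, and several bind growth factors of the TGF-beta family or cell surface receptors. In the knee end of the femur the family is spread over growth plate, joint cartilage, bone, tendon and ligament, and single members are textbook marks of some of these tissues. By structure, Dcn, Bgn and Aspn form class I, Fmod, Lum, Prelp and Omd belong to class II, Epyc and Ogn to class III, and Chad stands apart in class IV.

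Several of the genes are neighbours on the chromosome. In the RefSeq gene table of assembly GRCm38.p6, Aspn, Omd and Ogn follow one another on chromosome 13, with the related gene Ecm2 beside Aspn. Dcn, Lum, the related gene Kera and Epyc follow one another on chromosome 10, and Prelp and Fmod lie side by side on chromosome 1. Bgn is on chromosome X and Chad on chromosome 11.

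Promoter sequence is shown for 3 genes on which the results in sorted cells turn, namely Epyc, which was far higher in newborn cells, and the cluster neighbours Ogn and Aspn, which moved in opposite directions after microfracture. The RefSeq promoter table of build GRCm38.p6 held 9 entries for 8 of the 10 genes, each spanning 250 bases before the start to 50 bases after it. They were searched on both strands for TGTGGT, the core bound by RUNX factors of bone and hypertrophic cartilage, and for ACAATG, a core bound by SOX factors of cartilage. Capitals mark the matches, which read ACCACA or CATTGT where they lie on the opposite strand. All 4 sequences are on the plus strand.
Epyc chr10:97643818-97644117: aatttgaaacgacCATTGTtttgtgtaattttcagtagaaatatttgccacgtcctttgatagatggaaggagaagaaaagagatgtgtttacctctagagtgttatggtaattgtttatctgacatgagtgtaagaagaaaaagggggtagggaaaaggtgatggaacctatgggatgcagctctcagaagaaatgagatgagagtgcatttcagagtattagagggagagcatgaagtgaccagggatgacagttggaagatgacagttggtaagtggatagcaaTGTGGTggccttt
Epyc, second start, chr10:97646853-97647152: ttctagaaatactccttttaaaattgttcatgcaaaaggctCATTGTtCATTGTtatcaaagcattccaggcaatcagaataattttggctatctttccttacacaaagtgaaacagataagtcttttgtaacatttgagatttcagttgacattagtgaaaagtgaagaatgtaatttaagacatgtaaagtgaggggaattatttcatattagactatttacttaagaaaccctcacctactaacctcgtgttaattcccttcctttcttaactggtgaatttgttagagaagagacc
Ogn chr13:49607765-49608064: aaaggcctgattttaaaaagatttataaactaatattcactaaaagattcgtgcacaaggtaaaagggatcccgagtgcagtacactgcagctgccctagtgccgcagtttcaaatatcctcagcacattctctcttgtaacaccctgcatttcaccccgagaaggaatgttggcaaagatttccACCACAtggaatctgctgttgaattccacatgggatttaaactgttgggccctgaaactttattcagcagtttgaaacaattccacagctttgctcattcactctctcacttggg
Aspn chr13:49544193-49544492: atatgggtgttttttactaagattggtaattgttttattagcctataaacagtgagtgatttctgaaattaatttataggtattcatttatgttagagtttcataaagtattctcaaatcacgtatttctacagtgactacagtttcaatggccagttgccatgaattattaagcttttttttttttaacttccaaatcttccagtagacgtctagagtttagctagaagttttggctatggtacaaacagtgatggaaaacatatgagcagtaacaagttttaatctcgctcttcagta
The first Epyc sequence held a SOX match 237 bases before the start and a RUNX match 37 bases after it, and the second held SOX matches 209 and 202 bases before the start. Ogn held a RUNX match 65 bases before its start, and Aspn held neither motif. Across all 32851 promoters of the same length, 16.761% held the RUNX core and 12.569% the SOX core, so matches of such short motifs are common. The other 5 entries, of Bgn, Chad, Fmod, Omd and Prelp, held neither motif.

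For the sorted cells the deposited value is a MAS5 intensity, a linear measure of probe brightness. Intensities of different genes are not compared here, because each probe responds in its own way. Replicates correlated across genes at 0.951 to 0.967 in newborn cells, at 0.887 to 0.934 after microfracture and at 0.832 to 0.902 in uninjured adult cells. The median intensity of an array averaged 196 in newborn cells, 204 after microfracture and 329 in uninjured adult cells. Genes of olfactory and vomeronasal receptors, which bone should lack, had a median of 22.0 in newborn cells, 32.5 after microfracture and 155 in uninjured adult cells, below every value of every member.

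The gate was checked on the arrays. Ptprc, which encodes CD45 and should be absent, averaged 58.7 ± 21.1 in newborn cells, 651 ± 132 after microfracture and 3462 ± 367 in uninjured adult cells (SD, n = 4, 3 and 3). Tek, which encodes TIE2, averaged 84.7 ± 21.8, 110 ± 41.0 and 566 ± 387 in the same groups. Itgav, the positive gate gene, averaged 830 ± 74.9, 1339 ± 259 and 1050.1 ± 384. Of the other genes the gate should exclude, Eng, which encodes CD105, averaged 132 ± 42.5, 129.7 ± 25.7 and 452 ± 53.3, and Thy1 averaged 8.62 ± 1.34, 11.3 ± 6.15 and 46.0 ± 35.6. Each Thy1 mean lay below the olfactory and vomeronasal receptor median of its group, 22.0, 32.5 and 155, so the order of Thy1 is not read. Enpep, which encodes 6C3, stood in another order, at 60.2 ± 13.5, 401 ± 142 and 172 ± 47.4, and was called higher after microfracture than in uninjured adult cells (log2 difference 1.13 ± 0.36, adjusted p = 0.0317). Summed over 9 myeloid markers, intensity lay between 2549 and 3318 in newborn cells, between 7490 and 21284 after microfracture and between 36367 and 50976 in uninjured adult cells. Sums over 6 erythroid markers lay between 345 and 896, between 2606 and 4974, and between 12869 and 15880 in the same order. No marker of these lists was at 0, which held for every list counted here. The lowest myeloid and erythroid values in newborn cells, 8.71 and 6.49, lay below the olfactory and vomeronasal receptor median of 22.0 there. Blood cell markers were thus highest in the uninjured adult arrays, and their part in the results below was not tested.

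The first comparison asked how stem cells of newborn and uninjured adult bone differ. Newborn cells had far more Epyc and less of most other family members. Epyc was 17.9-fold higher in newborn cells, while Aspn, Ogn, Dcn, Chad, Omd and Lum were 3.58-fold, 3.12-fold, 3.04-fold, 2.60-fold, 2.19-fold and 1.72-fold lower. Thus 7 of the 10 genes passed an adjusted p of 0.05 in limma, 1 higher and 6 lower. Of all 10893 genes tested 54.6% passed, 25.2% higher and 29.4% lower. Newborn and uninjured adult arrays did not overlap for 8 members, against 61% of all genes. The median log2 difference of the 10 was -0.96, beside -0.02 for all genes.

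Epyc encodes epiphycan, a proteoglycan of growth plate cartilage. Its intensity was 17706, 15376, 13251 and 14241 in newborn cells, 230.2, 1298 and 387 after microfracture, and 395, 959 and 1482 in uninjured adult cells. Every newborn array stood above every adult array by a wide gap, and the adult groups overlapped. The log2 difference was 4.16 ± 0.49 between newborn and uninjured adult cells (SE, adjusted p = 2.63e-05) and 4.89 ± 0.49 between newborn and microfractured adult cells (adjusted p = 8.57e-06).

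Aspn encodes asporin, which lacks a sugar chain and binds collagen and TGF-beta. It read 439, 307, 478 and 400.0 in newborn cells, 2807, 3238 and 3036 after microfracture, and 1226, 1348 and 1945 in uninjured adult cells. The 3 groups did not overlap, with newborn lowest and microfractured highest, and each step passed the test. The log2 difference was -1.84 ± 0.20 between newborn and uninjured adult cells (adjusted p = 1.45e-05), 1.03 ± 0.22 between microfractured and uninjured adult cells (adjusted p = 0.00484) and -2.87 ± 0.20 between newborn and microfractured cells (adjusted p = 4.61e-07).

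Ogn encodes osteoglycin, a class III relative of epiphycan found in bone and connective tissue. Its intensity was 3698, 2858, 3433 and 3698 in newborn cells, 5593, 5203 and 5919 after microfracture, and 9392, 11257 and 11407 in uninjured adult cells. Here too no 2 groups overlapped, but the order differed, with uninjured adult cells highest. Newborn cells fell below uninjured adult cells by a log2 difference of -1.64 ± 0.16 (adjusted p = 7.34e-06) and below microfractured cells by -0.71 ± 0.16 (adjusted p = 0.00455). Microfractured cells fell below uninjured adult cells by -0.93 ± 0.18 (adjusted p = 0.00307).

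Dcn encodes decorin, the class I member that coats collagen fibrils and binds TGF-beta. It read 13065, 13949, 12255 and 9660.0 in newborn cells, 35472, 14043 and 16999.7 after microfracture, and 50359, 38613 and 25851 in uninjured adult cells. Newborn cells lay below every adult array, and 1 microfractured array lay well above the other 2. Newborn cells differed from uninjured adult cells by -1.61 ± 0.32 (adjusted p = 0.00107) and from microfractured cells by -0.75 ± 0.32, which did not pass (adjusted p = 0.0841). On microfracture arrays 2 and 3 the Dcn value was the highest of any gene, while the highest value of other arrays lay between 22525 and 64219. Dcn is therefore read at the top of the measured range there, and the part this plays was not tested.

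Chad encodes chondroadherin, a cartilage protein without a sugar chain that binds collagen and integrins. It read 1948, 1789, 1696 and 1997 in newborn cells, 5202, 4777 and 4098 after microfracture, and 4888, 5731 and 4061 in uninjured adult cells. Newborn cells were below both adult groups, which overlapped almost fully. The log2 difference was -1.38 ± 0.17 against uninjured adult cells (adjusted p = 3.21e-05) and -1.33 ± 0.17 against microfractured cells (adjusted p = 5.38e-05).

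Omd encodes osteomodulin, a keratan sulfate proteoglycan of bone matrix. It read 1986, 1767, 1948 and 1822 in newborn cells, 3886, 7154 and 3783 after microfracture, and 3842, 3470.3 and 5298 in uninjured adult cells. The newborn arrays sat together below all 6 adult arrays. The log2 difference was -1.13 ± 0.23 against uninjured adult cells (adjusted p = 0.00122) and -1.32 ± 0.23 against microfractured cells (adjusted p = 0.000618).

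Lum encodes lumican, a collagen-binding class II member best known from the cornea. It read 13288, 10899.6, 10122 and 8196 in newborn cells, 23378, 12684 and 12492 after microfracture, and 19085, 18368 and 16649 in uninjured adult cells. Newborn and uninjured adult arrays did not overlap. The microfractured values of 12684 and 12492 lay within the newborn range, and that of 23378 lay above every uninjured adult array. The difference of -0.78 ± 0.25 from uninjured adult cells passed (adjusted p = 0.0173) but did not without newborn replicate 4 (adjusted p = 0.0537). That of -0.56 ± 0.25 from microfractured cells did not pass (adjusted p = 0.0942).

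Prelp encodes a class II protein that anchors basement membranes to connective tissue. It read 3336, 4279, 3473 and 3468 in newborn cells, 6385, 5388 and 5019.6 after microfracture, and 4706, 5143 and 4493 in uninjured adult cells. Newborn arrays lay below every adult array. The difference from microfractured cells passed, at -0.62 ± 0.16 (adjusted p = 0.00933). The difference from uninjured adult cells missed the threshold at -0.40 ± 0.16 (adjusted p = 0.0534) and passed without newborn replicate 2 (adjusted p = 0.0402) or microfracture replicate 1 (adjusted p = 0.0310). It also passed with quantile normalization (-0.82, adjusted p = 0.000442), with the 2 groups fitted alone (adjusted p = 0.0335) and with a stricter filter at the 75th percentile (adjusted p = 0.0498), whereas centring arrays on their medians turned its sign (0.31, adjusted p = 0.124).

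Fmod encodes fibromodulin, a class II member of tendon and cartilage, and read between 7141 and 7694 in newborn cells, between 7662 and 12245 after microfracture and between 7133 and 14355 in uninjured adult cells. The groups overlapped in every pairing. Newborn cells differed from uninjured adult cells by -0.50 ± 0.24 (adjusted p = 0.0923), and this passed without uninjured adult replicate 3 (-0.78, adjusted p = 0.0107) and with quantile normalization (-0.47, adjusted p = 0.0311), while median centring turned its sign (0.20, adjusted p = 0.468).

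Bgn encodes biglycan, a class I member that can signal through toll-like receptors. It read between 6144 and 7108 in newborn cells, between 5042 and 9439.7 after microfracture and between 4605 and 7158 in uninjured adult cells. On the deposited scale all 3 comparisons gave log2 differences between -0.03 and 0.18, with adjusted p between 0.580 and 0.946. With arrays centred on their medians Bgn was called higher against uninjured adult cells, by 0.86 in newborn cells and 0.83 after microfracture.

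**Figure D1:**
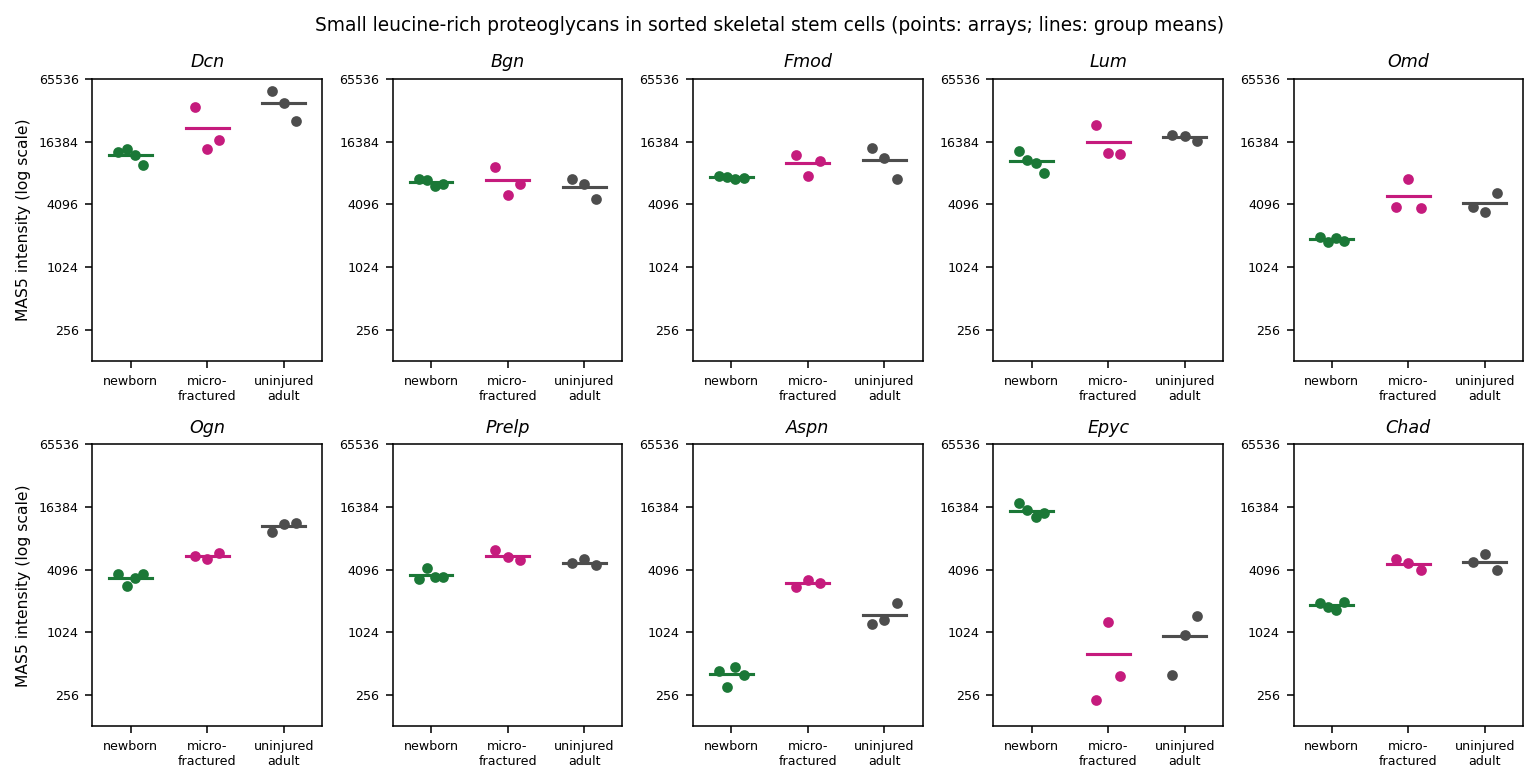
MAS5 intensity (log axis) of each gene in sorted stem cells from newborns (4 arrays), microfractured adults (3) and uninjured adults (3). Points are arrays and lines are group means. Epyc stands alone in being high in newborn cells, and Aspn and Ogn show 3 groups without overlap in different orders.

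Stem cells of microfractured and uninjured adult joints were compared next, to see what the injury changed. Of the 10 genes, 1 rose and 1 fell: Aspn was 2.04-fold higher and Ogn 1.91-fold lower in microfractured than in uninjured adult cells. The other 8 did not pass, so 2 of 10 were called where 33.1% of all genes were, 13.3% higher and 19.8% lower. Only these genes had groups without overlap, 2 of 10 against 41.1% of all genes tested. The median log2 difference of the family was -0.06, beside -0.04 for all genes. Aspn and Ogn lie in the same gene cluster with Omd between them, and Omd differed by 0.19 ± 0.24 (adjusted p = 0.581).

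Dcn was 1.81-fold lower after microfracture, at a log2 difference of -0.86 ± 0.34 that did not pass (adjusted p = 0.0705). It passed without uninjured adult replicate 3 (-1.11, adjusted p = 0.0427) and without microfracture replicate 1 (-1.26, adjusted p = 0.00494). With quantile normalization, which gives all arrays the same range, its sign turned (0.23, adjusted p = 0.208). Epyc differed by -0.73 ± 0.53 (adjusted p = 0.306) and passed only without microfracture replicate 2, the array with the highest Epyc of that group (-1.42, adjusted p = 0.0256). Prelp, Bgn, Chad, Fmod and Lum differed by 0.22 ± 0.17, 0.18 ± 0.24, -0.05 ± 0.18, -0.07 ± 0.26 and -0.22 ± 0.26, with adjusted p between 0.348 and 0.855.

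The array scale bears on these counts. Centring each array on its median moved the median of all genes by 0.70 between newborn and uninjured adult cells and by 0.65 between microfractured and uninjured adult cells, and quantile normalization moved them by 0.13 and 0.14. Centred on medians, 2 members were higher and 4 lower in newborn than in uninjured adult cells, with Bgn called higher (0.86) and Lum and Omd no longer called. Quantile normalization gave the other extreme, 1 higher and 8 lower, with Fmod and Prelp added to the calls, and 3028 of 5576 calls over all genes were then higher. Centred on medians, 5 members were higher and 0 lower after microfracture, namely Aspn, Prelp, Omd, Bgn and Chad, and Ogn was not called (-0.28, adjusted p = 0.291). Over all genes, 4882 of 5811 calls after microfracture were then higher, against 1453 of 3606 on the deposited scale and 1492 of 2807 with quantile normalization. Between newborn and uninjured adult cells 5702 of 7491 calls were higher with median centring, against 2743 of 5945 on the deposited scale. The rise of Aspn after microfracture, and the calls of Epyc, Aspn, Ogn, Dcn and Chad between newborn and uninjured adult cells, passed on all 3 scales. Beside these results, all 7 myeloid, all 5 erythroid and all 3 lymphocyte markers tested were lower after microfracture. So were 6 of 7 stromal niche markers. Of all genes, 19.8% were lower there on the deposited scale. Sums over 10 tendon and fibroblast markers lay between 23370 and 43133 after microfracture and between 25624 and 28353 in uninjured adult cells, with 0 of 8 tested members called. Their part in the results was not tested.

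Newborn cells were also set against microfractured adult cells. Of the 10 genes, Epyc was 29.7-fold higher in newborn cells, and Aspn, Chad, Omd, Ogn and Prelp were 7.29-fold, 2.51-fold, 2.50-fold, 1.63-fold and 1.54-fold lower. These 6 calls compare with 36.7% of all genes tested, 18.4% higher and 18.3% lower. For 7 members the groups did not overlap, against 42.8% of all genes. The family's median log2 difference was -0.66, beside 0.06 for all genes. Dcn, Lum, Fmod and Bgn did not pass, and Dcn did without microfracture replicate 2 (-1.02, adjusted p = 0.0333). With quantile normalization Dcn, Lum and Fmod were also called lower, which made 9, while calls over all genes dropped to 3148, against 3997 on the deposited scale. The comparisons share groups of arrays, so their calls are not independent of one another.

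**Figure D2:**
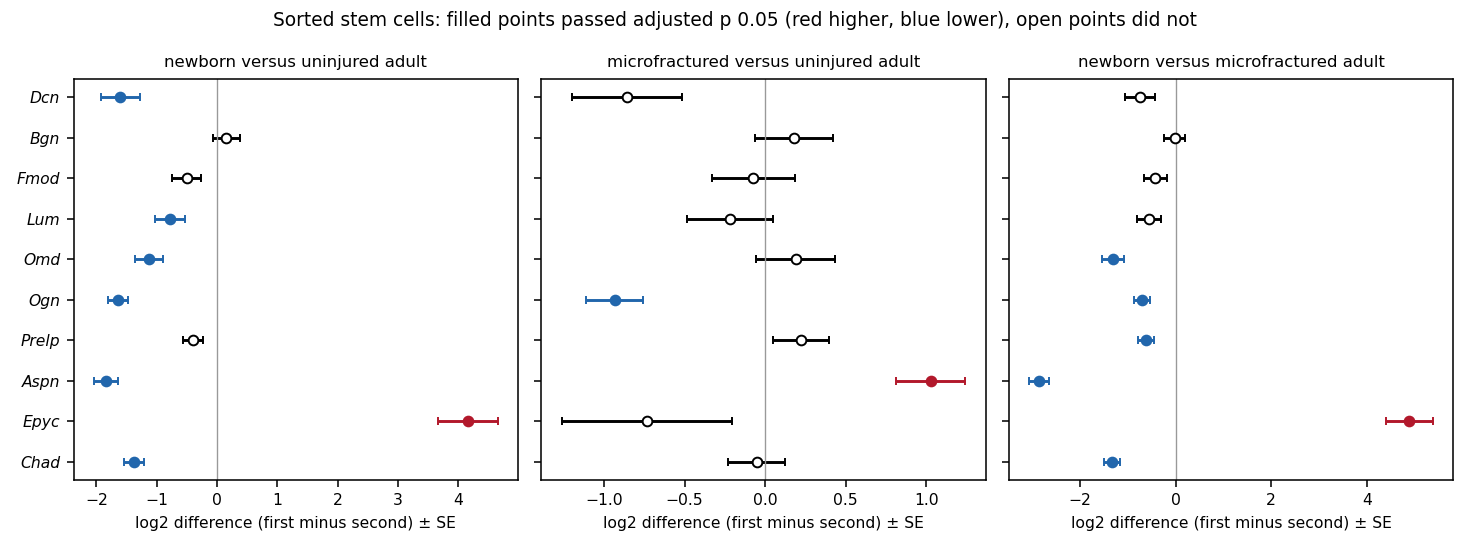
Log2 differences in sorted stem cells with limma standard errors, for newborn minus uninjured adult, microfractured minus uninjured adult and newborn minus microfractured adult. Filled points passed an adjusted p of 0.05, red for higher and blue for lower in the group named first. Both newborn panels show Epyc far right and Aspn far left, and the microfracture panel has 2 filled points, Aspn and Ogn. Centred on array medians, Prelp and Fmod turn to the right of 0 in the first panel and Lum, Fmod and Chad in the second, and Bgn crosses 0 in the third. With quantile normalization, Bgn crosses 0 in the first panel, and Bgn, Omd, Prelp, Dcn, Fmod and Lum cross it in the second.

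The patterns of the members over the 10 sorted-cell arrays were compared by the root mean square difference of their log2 values after each gene's own mean was taken away. The closest pair was Fmod and Prelp at 0.29 log2 units, and the farthest was Aspn and Epyc at 3.49. Among all genes tested, Epyc was closest to Col9a2, a chain of a cartilage collagen, at 0.52, followed by Tcfl5 at 0.59 and Art3 at 0.61. Chad was closest to Slc23a2 at 0.15 and next to Col2a1, the main cartilage collagen, at 0.18. Ogn was closest to Mkrn1 at 0.10, Aspn to Mn1 at 0.27, and Dcn to Serpine2 at 0.19. These distances describe 10 arrays that share 3 groups, and a gene that varies little lies close to many others.

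Other genes that act on these proteins were counted from lists. Enzymes that build the linker and the chondroitin or dermatan sulfate chains of decorin and biglycan were mixed. In newborn against uninjured adult cells 7 were higher and 3 lower of 18 tested. The share called was near the 54.6% of all genes (25.2% higher and 29.4% lower). Csgalnact1, which starts the chondroitin chain, was higher by 2.63 ± 0.17, Chst11, a chondroitin sulfotransferase, by 1.98 ± 0.19, and Fam20b, a kinase of the linker, by 1.69 ± 0.17. After microfracture 5 of the 18 were higher and 1 lower, again near the 33.1% of all genes (13.3% higher and 19.8% lower). Among those called were Csgalnact1 at 0.94 ± 0.18, Chst12 at 2.58 ± 0.53 and Chst13 at -2.39 ± 0.59. The list median was 0.33 in newborn cells and 0.58 after microfracture, beside -0.02 and -0.04 for all genes.

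Keratan sulfate, a chain of several class II members, is built by another set of enzymes. Of 6 tested, 0 were higher and 3 lower in newborn than in uninjured adult cells. Of all genes 54.6% were called in that comparison, 25.2% higher and 29.4% lower. The 3 were B3gnt2 by -1.51 ± 0.24, Chst1 by -1.37 ± 0.24 and Chst5 by -1.78 ± 0.36. After microfracture 2 were higher and 0 lower, Chst2 at 1.69 ± 0.38 and B4galt1 at 0.78 ± 0.22. Of all genes 33.1% were then called, 13.3% higher and 19.8% lower. The list median was -0.70 in newborn cells and 0.54 after microfracture.

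Of the 9 fibrillar collagen genes whose products the family binds, 2 were higher and 5 lower in newborn than in uninjured adult cells. Of all genes, 54.6% were called there, 25.2% higher and 29.4% lower. Col11a2, a cartilage chain, was higher by 3.49 ± 0.23, while Col1a1 and Col2a1, the main chains of bone and cartilage fibrils, were lower by -1.69 ± 0.25 and -1.36 ± 0.22. After microfracture Col5a1 and Col5a3 were higher by 1.28 ± 0.22 and 1.61 ± 0.34 and Col1a2 was lower by -0.68 ± 0.23. The other 6 collagens were not called in that comparison, where 33.1% of all genes were, 13.3% higher and 19.8% lower. Of 11 genes tested from a list of proteases that process or cleave the family, 2 were higher and 7 lower in newborn cells. The same 25.2% of all genes were higher and 29.4% lower. This list includes Pcolce, which is not a protease and was 1 of the 2 higher. The lower ones were led by Mmp13 at -5.68 ± 0.24, Adamts5 at -4.38 ± 0.21 and Mmp9 at -5.14 ± 0.43. After microfracture Pcolce, an enhancer of collagen processing, was higher by 1.66 ± 0.26. Mmp14 was higher by 0.95 ± 0.31 and Mmp13 was lower by -0.81 ± 0.26. The other 8 of this list were not called, again where 33.1% of all genes were.

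Of 14 ligands and receptors known to bind members, 2 were higher and 8 lower in newborn than in uninjured adult cells. The share of all genes called there was 54.6%, 25.2% higher and 29.4% lower. Among the lower were Cd44, a hyaluronan receptor, at -2.55 ± 0.17 and the toll-like receptors Tlr4 and Tlr2 at -2.31 ± 0.29 and -1.48 ± 0.22. After microfracture 4 were higher and 0 lower, where 13.3% of all genes were higher and 19.8% lower. Among the 4 were Cd44 at 1.37 ± 0.18, Tgfb1 at 1.67 ± 0.37 and Tgfb2 at 0.81 ± 0.17. Of 5 other leucine-rich repeat proteoglycans tested, Chadl, the closest relative of Chad, was higher in newborn cells by 1.56, whereas Kera, Ecm2 and Podn were lower by -2.91, -2.59 and -2.00. After microfracture only Podn was called, at -1.67.

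Markers of the tissues in which the family is known were set beside it. In newborn against uninjured adult cells 13 of 15 cartilage markers were higher and 1 lower. In the same comparison 8 of 8 osteoblast markers and 7 of 8 tendon and fibroblast markers were lower. Of all genes, 25.2% were higher and 29.4% lower. Sums over 15 cartilage markers lay between 109620 and 130006 in newborn cells, between 60693 and 66810 after microfracture and between 59358 and 79663 in uninjured adult cells. Sums over 10 osteoblast markers lay between 8351 and 9026 in newborn cells, between 44105 and 49447 after microfracture and between 43272 and 61811 in uninjured adult cells. Tendon and fibroblast sums lay between 4260 and 5640 in newborn cells, under the lowest adult array at 23370. The part of these differences in the results for the family was not tested.

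In bulk tissue the deposited value is an activity score between -100 and 100, whose computation and 0 point the sources used here do not explain, so differences are in score points and never folds. In bulk tissue, fewer cells of a type and less RNA per cell cannot be told apart. Replicates correlated at 0.425 to 0.636 in newborn, 0.59 to 0.638 in microfractured and 0.58 to 0.796 in uninjured adult tissue. Newborn tissue was higher than uninjured adult tissue for 9 of the 10 genes, beside 50.3% of all genes. Of the members 3 passed, Prelp, Chad and Aspn, and only Prelp passed whichever array was left out. Of all 16606 genes tested, 6.36% were called, 2.01% higher and 4.35% lower. Groups did not overlap for 7 members, against 16.3% of all genes. The family's median difference was 42.06 points, beside 0.18 for all genes.

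Prelp scored 64.7, 49.4 and 71.5 in newborn tissue, -34.0, 25.6 and 29.3 after microfracture, and -84.3, -34.9, -38.3, -56.8 and -11.4 in uninjured adult tissue. Every newborn array was above every adult array, and the adult groups overlapped. Newborn tissue was higher by 106.98 ± 19.97 points than uninjured adult tissue (adjusted p = 0.0116). The other Prelp probe set, tested on its own, passed too (91.18 ± 22.09, adjusted p = 0.0320).

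Chad scored 79.6, 61.6 and 90.5 in newborn tissue, 8.76, -68.3 and 29.2 after microfracture, and -2.36, -20.3, -55.6, 0.56 and -12.3 in uninjured adult tissue. The newborn arrays again stood clear of the rest, and the microfractured arrays spread most widely. The difference of 95.25 ± 23.11 points from uninjured adult tissue passed (adjusted p = 0.0341) but was lost, at adjusted p between 0.0547 and 0.105, when any newborn array or uninjured adult replicate 2, 3, 4 or 5 was left out.

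Aspn scored 94.4, 90.3 and 89.5 in newborn tissue, 81.8, 88.0 and 79.2 after microfracture, and 30.3, 48.1, 40.2, 67.7 and 39.0 in uninjured adult tissue. Newborn was highest and uninjured adult lowest, with no overlap between any groups. Newborn tissue exceeded uninjured adult tissue by 46.36 ± 10.38 points (adjusted p = 0.0247), a call lost without newborn replicate 1 (0.0662), 2 (0.0569) or 3 (0.0772) or uninjured adult replicate 3 (0.0525), these being adjusted p values. The call was also lost with the 2 groups fitted alone (adjusted p = 0.0711). The second Aspn probe set differed by 46.05 ± 15.34 and did not pass (adjusted p = 0.105).

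Epyc scored 86.5, 88.3 and 71.8 in newborn tissue, -2.23, -1.62 and -2.78 after microfracture, and 5.34, 34.9, 49.9, 45.3 and 25.2 in uninjured adult tissue. No groups overlapped, and the microfractured arrays were lowest. Newborn tissue differed from uninjured adult tissue by 50.08 ± 17.25 points (adjusted p = 0.120) and from microfractured tissue by 84.40 ± 19.28 points (adjusted p = 0.0598), and neither passed.

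Bgn scored 70.5, 75.6 and 82.3 in newborn tissue, 52.6, 18.3 and 48.8 after microfracture, and 31.6, 3.59, 3.26, 6.59 and 35.7 in uninjured adult tissue. Newborn arrays stood above all others, at 60.00 ± 17.60 points over uninjured adult tissue (adjusted p = 0.0707). Ogn scored 94.8, 96.0 and 56.3 in newborn tissue, 67.0, 68.3 and 51.4 after microfracture, and between 28.1 and 56.5 with a median of 54.2 in uninjured adult tissue. Its newborn and uninjured adult arrays overlapped narrowly, at 37.75 ± 14.34 points (adjusted p = 0.159).

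Fmod was near the upper bound of the score, where little room is left to move: it scored 97.4, 94.8 and 97.5 in newborn tissue, 94.2, 85.2 and 94.4 after microfracture, and 92.8, 77.3, 79.8, 80.0 and 77.8 in uninjured adult tissue. The difference of 15.00 ± 5.09 points did not pass (adjusted p = 0.115) and did without uninjured adult replicate 1 (17.82, adjusted p = 0.0466). Of its 6 probe sets, all higher in newborn tissue without overlap, 2 passed when tested on their own. One of them read 74.4 in newborn and -28.7 in uninjured adult tissue on average, a difference of 103.09 ± 20.54 points (adjusted p = 0.0148).

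Lum scored 45.9, 48.2 and 44.0 in newborn tissue, 52.3, 53.5 and 49.3 after microfracture, and 27.5, 36.0, 30.7, 39.0 and 16.6 in uninjured adult tissue. Its groups did not overlap, but the difference of 16.10 ± 15.27 points did not pass (adjusted p = 0.604). Dcn scored between 66.6 and 81.8 in newborn tissue, between 64.7 and 72.8 after microfracture and between 66.2 and 71.2 in uninjured adult tissue, with a difference of 6.52 ± 8.04 points (adjusted p = 0.701). Omd scored between 23.4 and 43.9 in newborn tissue, between -2.73 and 49.8 after microfracture and between 22.3 and 65.0 in uninjured adult tissue. It was the single member lower in newborn than in uninjured adult tissue, by -6.66 ± 19.42 points (adjusted p = 0.888), and its groups overlapped.

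**Figure D3:**
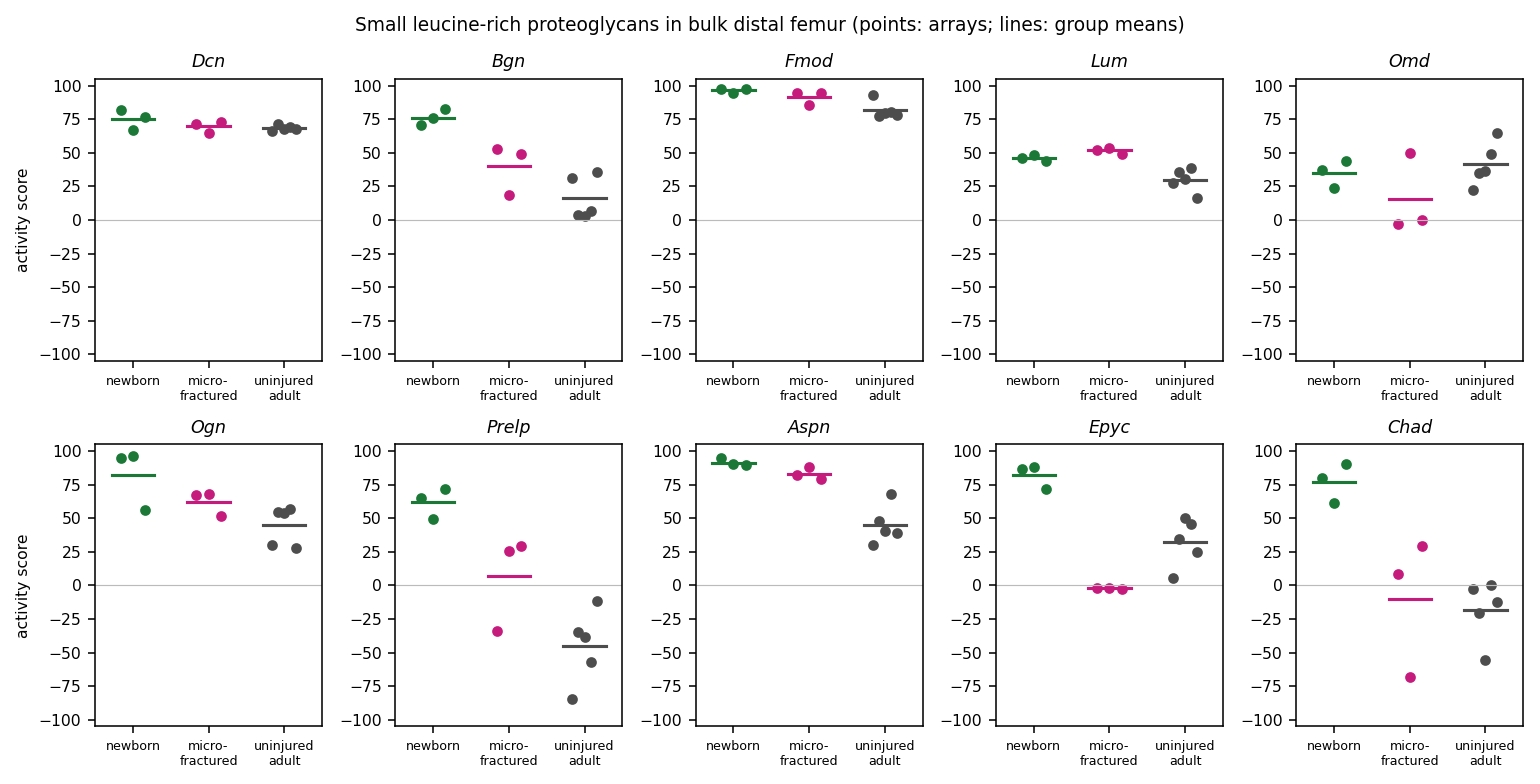
Activity score (-100 to 100) of each gene in bulk distal femur of newborns (3 arrays), microfractured adults (3) and uninjured adults (5). Points are arrays and lines are group means. Newborn arrays of Prelp, Chad, Bgn and Epyc stand above all adult arrays, Dcn and Fmod sit near the top in every group, and Epyc after microfracture lies in a narrow band below 0.

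After microfracture, bulk tissue gave no call in limma among the 10 members or among all 16606 genes, a share of 0%. At an unadjusted p of 0.05, 2 members and 1627 genes (9.8%) would pass. Those members were Aspn, higher by 37.94 ± 10.38 points (adjusted p = 0.328), and Prelp, higher by 52.13 ± 19.97 points (adjusted p = 0.452). Groups did not overlap for Lum and Aspn, which lay above uninjured adult tissue, and for Epyc, which lay below it by -34.32 ± 17.25 points (adjusted p = 0.554). That makes 3 of 10, against 9.55% of all genes. Ogn, called lower in the sorted cells after microfracture, was 17.56 ± 14.34 points higher in bulk tissue and did not pass (adjusted p = 0.716).

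Between newborn and microfractured bulk tissue, 0 members and 1.45% of all genes (0.403% higher and 1.05% lower) were called by limma, and 3 members passed at an unadjusted p of 0.05, as did 2522 genes. The 3 were Epyc, Chad (87.38 ± 25.84 points, adjusted p = 0.129) and Prelp (54.86 ± 22.33 points, adjusted p = 0.267). Groups did not overlap for 7 members, against 19.7% of all genes. Lum was 1 of these and the single member lower in newborn tissue, by -5.66 ± 17.07 points (adjusted p = 0.924).

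The related proteoglycans Chadl and Kera were also called higher in bulk tissue of newborns than of uninjured adults, by 148.12 ± 22.88 points (adjusted p = 0.00480) and 91.26 ± 19.21 points (adjusted p = 0.0198), 2 of 5 tested. Of the lists of enzymes and collagens, 0 of 16 linker and chondroitin or dermatan sulfate genes, 0 of 4 keratan sulfate genes and 0 of 9 fibrillar collagens were called. From the list of proteases with Pcolce, 2 of 12 genes were lower, Mmp9 by -97.95 ± 21.50 and Mmp13 by -63.38 ± 14.09 points. In the same comparison 4 of 15 cartilage markers were higher, among them Sox9 at 130.67 ± 23.04 points, while 3 of 8 osteoblast markers, Phex, Mepe and Dmp1, were lower. Of 10 tendon and fibroblast markers 1 was higher, Tnmd by 95.70 ± 20.15 points, and 1 was lower, Pi16 by -115.95 ± 20.39 points. Myeloid markers were lower for 6 of 9, erythroid markers for 5 of 6 and lymphocyte markers for 3 of 5. Of all genes tested there, 2.01% were higher and 4.35% lower. Blood cell markers thus moved with the comparison in which 9 members were higher, and their part in it was not tested.

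Sorted cells and bulk tissue gave opposite signs for several members. In newborn against uninjured adult samples, Aspn and Chad were called lower in sorted cells and higher in bulk tissue, by log2 differences of -1.84 and -1.38 and by 46.36 and 95.25 score points. Prelp was called higher in bulk tissue and differed by -0.40 in sorted cells without passing. With quantile normalization it was called lower there too (-0.82), and with median centring it stood at 0.31 without passing. Dcn, Lum and Ogn were called lower in sorted cells and were 6.52, 16.10 and 37.75 points higher in bulk tissue without passing. Lum was not called in sorted cells with median centring (-0.08, adjusted p = 0.756) or without newborn replicate 4 (adjusted p = 0.0537). Epyc was higher in newborns in both kinds of sample. The 2 tables differ in unit and in processing, so the difference between them was not tested.

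**Figure D4:**
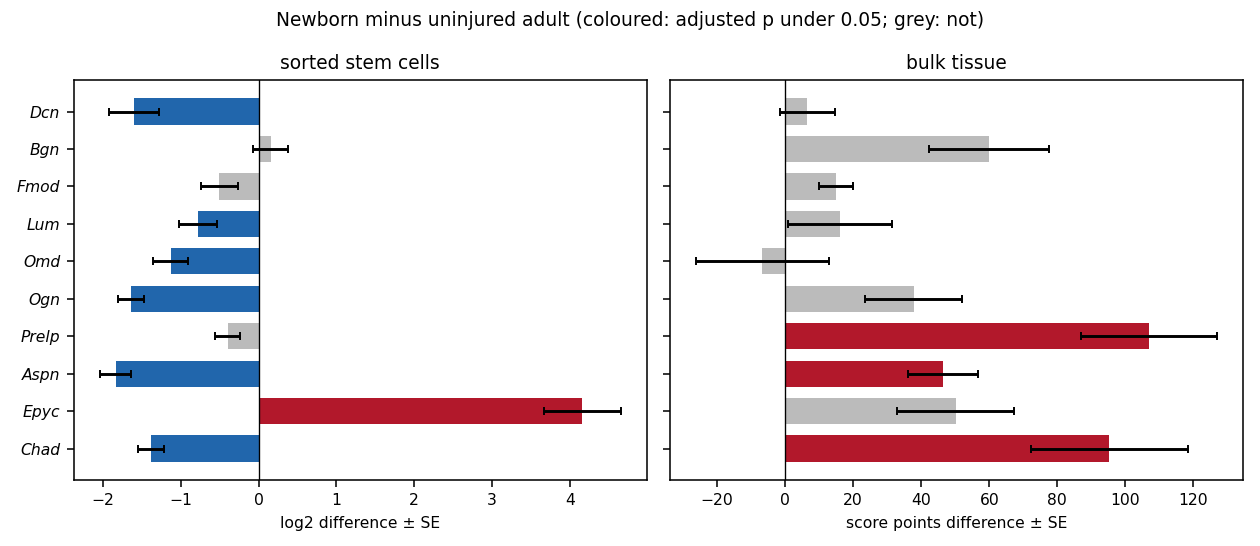
Newborn minus uninjured adult for each gene, as log2 difference in sorted stem cells and as score points in bulk tissue, with limma standard errors. Coloured bars passed an adjusted p of 0.05, red for higher and blue for lower in newborns. Aspn and Chad point left in sorted cells and right in bulk tissue, and Epyc points right in both. With arrays centred on their medians Prelp and Fmod point right in sorted cells, and with quantile normalization Bgn points left there.

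The last arrays asked how stem cells of microfractured joints given BMP2 or VEGFR1 compare with those given PBS. With 1 array per treatment there is no replicate check and no test. No member, read from its chosen probe set, differed by 50 score points or more between any of the 3 arrays, where 15.7% of 12327 genes did between BMP2 and PBS, 14.3% between VEGFR1 and PBS and 15.7% between BMP2 and VEGFR1. The median difference of the 10 genes was 9.43 points for BMP2 minus PBS and 1.69 for VEGFR1 minus PBS, beside -0.24 and -0.16 for all genes. Both differences use the same PBS array.

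With BMP2, 8 members scored higher than with PBS and 2 lower on their chosen probe sets. Chad, the integrin-binding cartilage protein, showed the widest gap of the family, at 30.58 with BMP2, 10.59 with VEGFR1 and -1.79 with PBS. Aspn followed with 6.78, -1.98 and -21.91 in the same order. Omd, a protein of bone matrix, scored 12.19, -2.16 and -4.24, and Prelp scored 48.03, 19.92 and 32.26. Ogn scored 61.13, 59.58 and 49.95, and Lum scored 35.27, 28.78 and 27.59. All of these, read from the chosen probe sets, were highest on the BMP2 array. Ogn's other probe set was highest with VEGFR1, at 73.61, beside 71.68 with BMP2 and 68.92 with PBS. Aspn's other probe set scored 13.69 with BMP2, -3.67 with VEGFR1 and -1.35 with PBS.

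Epyc scored 34.61 with BMP2, 45.29 with VEGFR1 and 38.17 with PBS, highest on the VEGFR1 array. Fmod scored 88.67, 78.48 and 83.47, Dcn 81.15, 74.15 and 78.06, and Bgn 65.96, 67.33 and 66.03. Bgn's other probe sets were both highest with BMP2, at 53.17, 44.98 and 49.62 and at 52.37, 44.07 and 43.58 in the same order. Fmod's other probe sets kept its order, with BMP2 above VEGFR1 by 15.24 to 26.03 points, against 10.19 on the chosen one. Dcn too depended on the probe set: its other probe set scored 63.3, -0.92 and 10.4 with BMP2, VEGFR1 and PBS. It was the single one of the family's 21 probe sets past 50 points, at 52.96 points between BMP2 and PBS and 64.26 between BMP2 and VEGFR1. For Dcn the means over both were 72.2 with BMP2 and 44.2 with PBS, a difference of 28.03 points. With VEGFR1, on the chosen probe sets, 7 members scored higher than with PBS and 3 lower, the 3 being Prelp, Fmod and Dcn. These gaps have no error to be read against. In bulk tissue the pooled SD between replicates of a group was 4.60 points for Dcn and 31.2 points for Chad, the lowest and highest of the family.

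**Figure D5:**
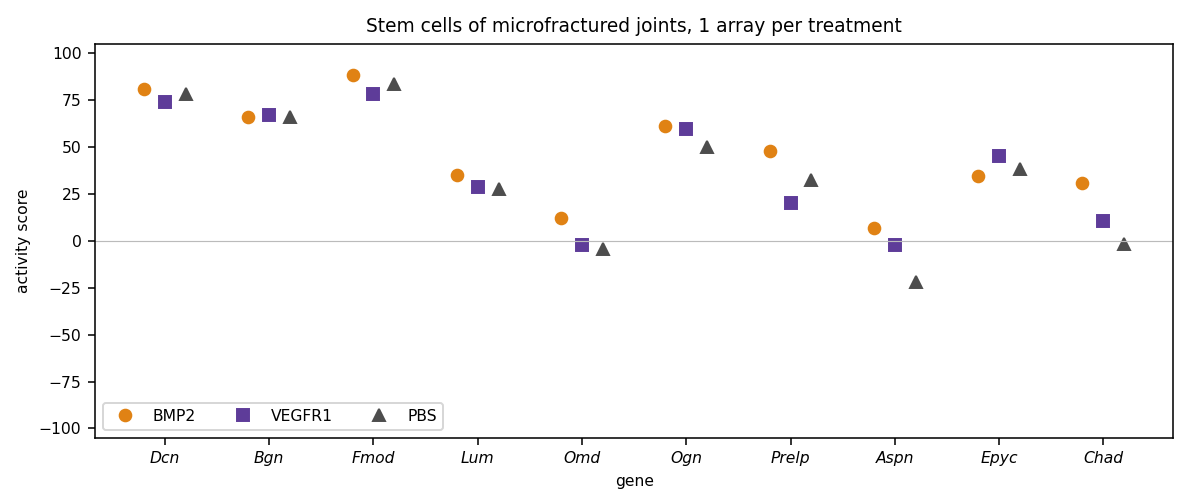
Activity score of each gene in sorted stem cells of microfractured adult joints given BMP2, VEGFR1 or PBS, 1 array each. The widest gaps between BMP2 and PBS are those of Chad and Aspn, at 32.37 and 28.69 points, and none of the probe sets drawn reaches 50 points.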

How the data were processed

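Expression was measured on Affymetrix arrays. For sorted cells the authors deposited linear MAS5 intensity for 18052 genes, MAS5 being named in the submitters' processing notes, and 17994 Entrez IDs matched the RefSeq table of GRCm38.p6. For bulk tissue and factor-treated cells the deposited values are an activity score per probe set; of 45101 probe sets 38557 carried 1 symbol and were used. The sources used here do not say how the score was made or which MAS5 version and probe annotation served. The per-platform tables held the same values (0 of 180520 and 0 of 631414 differed).

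Intensity was tested as log2(value + 16), so folds understate changes of low genes, and scores as deposited. A gene was kept when it exceeded its table's median (intensity 250.4, score -16.4) on 3 or more arrays, which left 10893 in sorted cells and 16606 in bulk tissue, and all 10 members passed both filters. One limma 3.58.1 model (R 4.3.3; lmFit, contrasts.fit, eBayes with a mean-variance trend, 2-sided) held all 3 groups of a kind, with Benjamini-Hochberg adjustment over all genes tested and a threshold of 0.05. The script was tested on data simulated for newborn against uninjured adult, with 100 genes changed at each size. In sorted cells it recovered 37% of log2 changes of 1 and 88% of changes of 2. In bulk tissue it recovered 1% of changes of 40 points and 7% of changes of 80 points. In these simulations no other genes were changed. Calls were 127 of 10893 genes in sorted cells and 8 of 16606 in bulk tissue, against 5945 and 1056 in the real comparisons. With so few changed genes the adjusted threshold is stricter, so these rates do not describe the real tests. A bulk difference that did not pass is still not evidence of no change. Errors on differences are limma's standard errors, which pool all 3 groups.

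Arrays were grouped by title. Separate animals are not stated for the replicates, and the p-values then reflect only the spread among these samples, which may be technical. The labels do not say whether samples with the same replicate number belong together. Same-numbered deviations correlated at -0.21 to 0.23, and a shared batch was not tested. The number of arrays limits the precision.

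The members and lists were chosen with earlier results of these data known. Named were all members, up to 3 genes per list and comparison by smallest limma p, gate and collagen genes, and for likeness the nearest 3 tested genes, of which some are left out for length. Alternatives covered filters, pseudocounts, scaling, variance trend, fitting 2 groups alone, a replicate block, left-out replicates, the mean of all probe sets and, added after seeing the data, each probe set alone (bulk tissue and factor arrays).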

Additional observations from a re-analysis of the deposited data

Results flagged for a closer look

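A single array stood apart from its group in 2 of 20 gene and group combinations examined, and chance alone gives about 1 in 20. In newborn sorted cells replicate 2 had a Prelp intensity of 4279, and its gap to the next array was 0.855 of the range of the group. In uninjured adult bulk tissue replicate 1 had an Fmod score of 92.8, with a gap of 0.827 of the range. Both arrays bear on calls, since Prelp passed between newborn and uninjured adult sorted cells without the first and Fmod passed between newborn and uninjured adult bulk tissue without the second.

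For 4 members every newborn array lay on one side of every uninjured adult array in sorted cells and on the other side in bulk tissue. The differences were -0.78 (log2) and 16.10 points for Lum, -0.40 and 106.98 points for Prelp, -1.84 and 46.36 points for Aspn, and -1.38 and 95.25 points for Chad. Between newborn and microfractured samples the same held for Prelp (-0.62 and 54.86 points), Aspn (-2.87 and 8.42 points) and Chad (-1.33 and 87.38 points). How many of all genes did the same was not counted. Absence of overlap alone held for 61% (sorted) and 16.3% (bulk) of all genes tested against uninjured adults. Against microfractured adults it held for 42.8% and 19.7%. With arrays centred on their medians, Prelp stood at 0.31 and Lum at -0.08 against uninjured adult cells, and neither was called. Aspn and Chad were still called lower on that scale. The difference between the kinds of sample was not tested.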

How the results depend on the processing

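Of 1230 values of single members under alternative settings, 1141 kept their direction and side of the threshold, 36 turned sign with no threshold passed before or after, 28 passed where they had not, 19 no longer passed, 5 moved and 1, Chad after microfracture, reversed into a call. In sorted cells, leaving out 1 array gave 6 to 8 members called between newborn and uninjured adult cells, 2 to 3 between microfractured and uninjured adult cells and 6 to 7 between newborn and microfractured cells. Calls over all genes in those runs are not set beside these counts. Centring arrays on their medians gave 5 called after microfracture instead of 2, and turned Chad to 0.60 (adjusted p = 0.0216). In bulk tissue, newborn against uninjured adult gave 5 members called without the variance trend, 6 with the mean of all probe sets, 4 with each probe set alone and 1 to 4 when 1 array was left out. Calls over all genes were 1199 without the trend and 1425 of 14833 with the mean of probe sets, against 1056 of 16606. Only 1 member was called without newborn replicate 1, 2 or 3 or uninjured adult replicate 3. Calls over all genes were then 1044, 804, 614 and 597. With each probe set alone, calls over all probe sets were not counted. The replicate block gave 0 members called in this comparison, as it did for all genes. The labels do not say whether samples of the same number share a batch, so what the block takes up was not tested. In sorted cells the block changed no count of members called. Between newborn and microfractured bulk tissue 1 member, Epyc, was called with no filter, with no variance trend and with the mean of all probe sets, at 84.4 points each, where calls over all genes were 301, 416 and 398, against 241. Leaving out 1 array gave 0 to 0 members in the other bulk comparisons. The factor arrays had 0 members past 50 points with quantile normalization, median centring or the mean of all probe sets, and 1, Dcn, with each probe set alone. The cause of these moves was not tested. The few arrays per group limit what can be told apart.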
